A study of Mus musculus with 18 samples.

Results

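Plasma protein genes were examined in the right kidneys of 18 wild-type male C57BL/6 mice. The set consisted of Pzp, Hrg, Apoh, Fga, Fgb, Fgg, Hp, Hpx, Ttr and Alb, taken by gene symbol as 10 of the 32675 genes in the deposited table. The set was proposed with results of these data known, and Pzp and Hrg were chosen by their fold changes between FLX and PBS mice, so their values in that comparison are given as a description without a test. The Ctrl group (n = 6) was not defeated. The PBS group and the FLX group (n = 6 each) underwent chronic social defeat stress (CSDS), in which an aggressive CD-1 mouse was met for 10 min each day over 14 days. During CSDS the PBS group received intraperitoneal phosphate-buffered saline and the FLX group received intraperitoneal fluoxetine, a selective serotonin reuptake inhibitor, at 10 mg per kg per day. The labels give an age of 6 weeks for all mice, which the study's methods give as the age at purchase, before adaptation and CSDS. The kidneys were thus taken at a later age. No drug was given without defeat. Levels are in FPKM, fragment counts scaled to gene length and library size, and so can be set side by side between genes. Total counts per mouse were 72149987 to 79061296 in 14 mice and 48928823 to 52073640 in FLX replicates 3 to 6. The study left out 1 PBS mouse, unnamed in its text, for excessive expression of inflammatory genes. PBS replicate 6 was taken to be this mouse, because it stood apart from the rest, and values are given over the other 5 PBS mice and then over all 6.

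Most plasma proteins are made by hepatocytes and secreted into the blood, where they carry lipids, hormones, heme and hemoglobin, inhibit proteases or form clots. Some of them are acute-phase proteins, whose genes are switched on in the liver by interleukin-6 through STAT3, together with C/EBP factors. The kidney receives plasma proteins that pass the glomerular filter and takes them up again in the proximal tubule through megalin and cubilin, and tubule cells also transcribe some plasma protein genes themselves.

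All members but Hpx were above 0 FPKM in all 18 mice. In Ctrl kidneys the highest level was that of Ttr, the carrier of thyroxine and retinol-binding protein, at 72.2 ± 16.1 FPKM (SD, n = 6), above 97.95% of the genes in the table. Pzp was next, at 8.02 ± 3.32 FPKM, followed by Fga at 5.91 ± 1.62, Apoh at 4.04 ± 1.59, Fgg at 3.75 ± 1.11, Hp at 3.20 ± 3.01, Alb at 1.95 ± 0.204 and Hrg at 1.61 ± 0.909 FPKM. Fgb, at 0.274 ± 0.0459 FPKM, and Hpx, at 0.197 ± 0.0827 FPKM, were lowest. The means of neighbours in this order differed by less than the larger of their SDs, except between Ttr and Pzp, between Fga and Apoh and between Hrg and Fgb. On the opposite strand, Pzp overlaps Gm10069, Apoh overlaps Prkca and Fgg overlaps Gm30097, which reached at most 0.595, 2.19 and 0.773 FPKM. The kit marked the strand, but the sources used here do not say whether the counting did, so shared reads cannot be told apart. The tissue label was checked against liver genes whose products are not plasma proteins. Of 17 such genes, 1 of far higher level was set aside after its values were seen. The other 16 summed to 0.609 to 2.25 FPKM in the 17 mice and to 29.1 FPKM in PBS replicate 6, where Fabp1 alone was at 26.1 FPKM, and 6 to 11 of the 16 were at 0 in each mouse. The 6 genes of this list that passed the filter gave 0 calls with edgeR, DESeq2 or limma in each comparison, with at most 1 at an unadjusted p under 0.05.

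**Figure D1:**
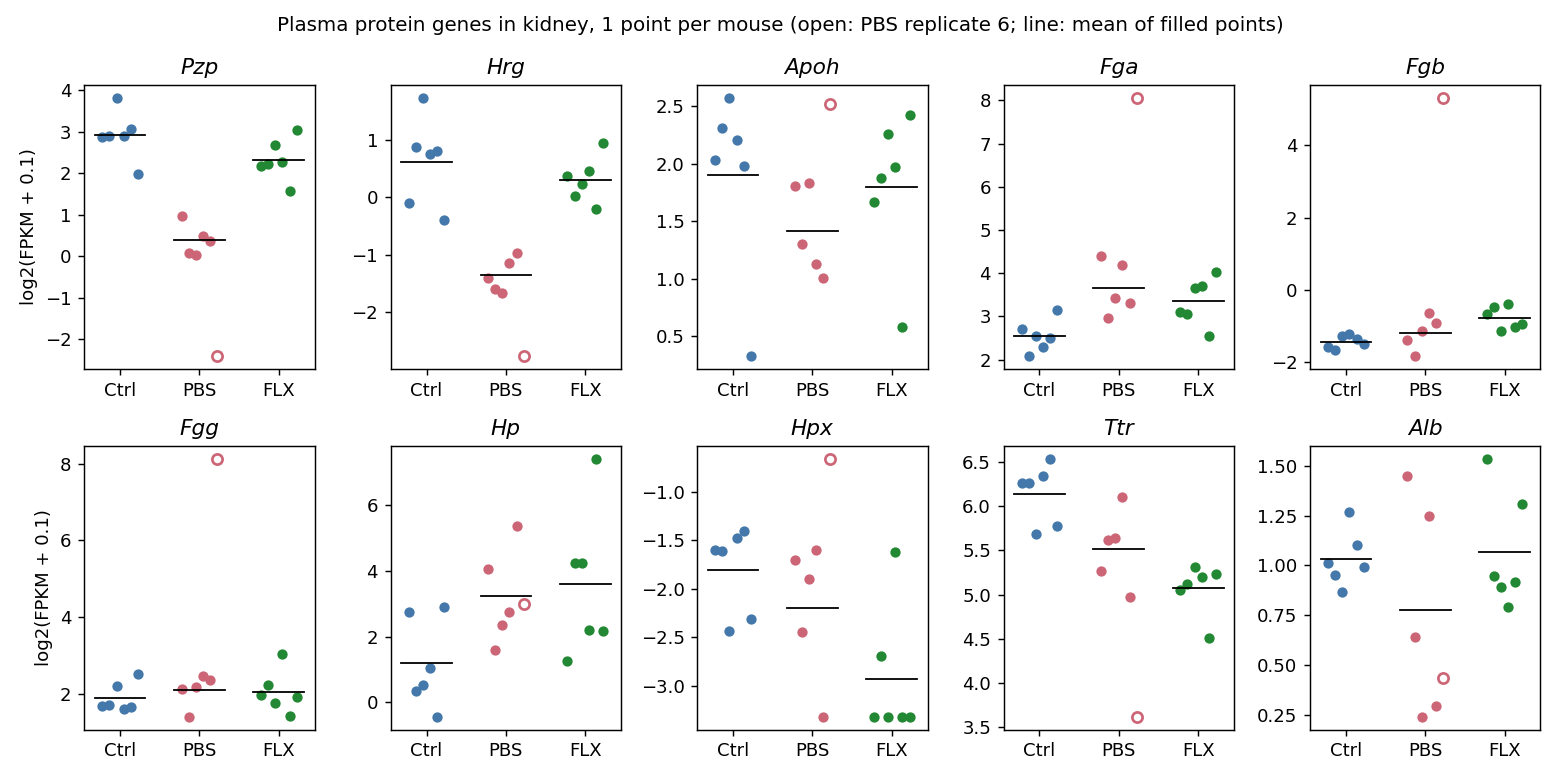
Level of each of the 10 plasma protein genes in each mouse, as log2(FPKM + 0.1), in the Ctrl, PBS and FLX groups. Each point is a mouse, the open circle is PBS replicate 6 and the line is the mean without it. Pzp and Hrg are lower in every PBS mouse than in any other mouse, Ttr is lower in every FLX mouse than in any Ctrl mouse, and Fga, Fgb and Fgg are far above the rest in PBS replicate 6.

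All 10 members passed the filter on low counts. In PBS versus Ctrl, 3 of 10 were called at an adjusted p under 0.05, against 3.81% of the 20251 genes tested. Pzp and Hrg fell, where 1.67% of all genes were called lower, and Fga rose, where 2.14% were called higher. Pzp and Hrg were chosen on a comparison with the same PBS mice, so the 3 of 10 is not an unselected count. Of the 8 other members, Fga alone was called. Over all 6 PBS mice 5 of 10 were called, Pzp and Hrg again among them, against 4.28% of 19946 genes, with Fgb and Fgg as further rises. In FLX versus Ctrl, Ttr alone was called, as lower, against 3.67% of all genes in either direction and 1.59% lower. In FLX versus PBS, 0.726% of all genes were called in either direction and 0.306% higher, and none of the 8 members other than Pzp and Hrg, which were chosen on this comparison, was among them. The median log2 fold change of the members was -0.33 in PBS versus Ctrl, 0.26 in FLX versus PBS and -0.13 in FLX versus Ctrl, where the median over all genes was -0.00776, -0.00267 and -0.00917. With all 6 PBS mice the members' medians were -0.11, -0.12 and -0.13. All these medians include Pzp and Hrg, so no shift of the set is read from them. The other 8 lay in both directions with 5 PBS mice. They ran from -0.60 (Apoh) to 2.18 (Hp) in PBS versus Ctrl, and from -1.70 (Hpx) to 1.25 (Hp) in FLX versus PBS.

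**Figure D2:**
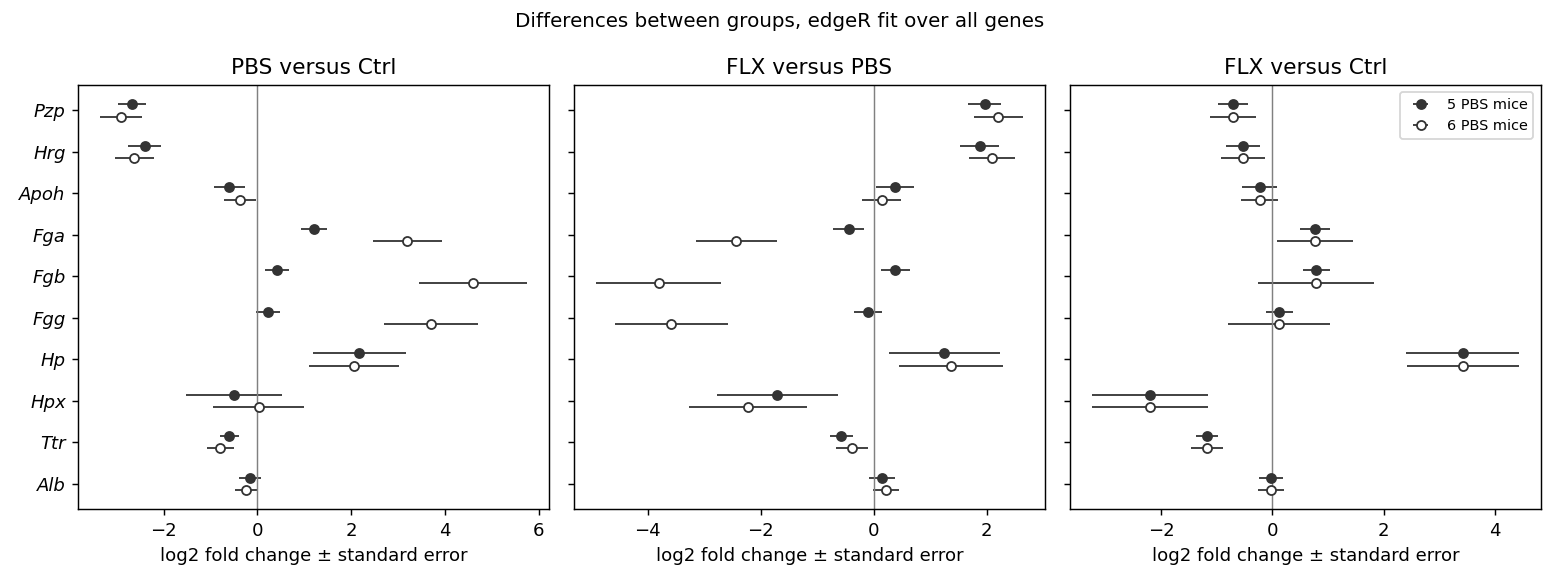
Log2 fold change of each member in PBS versus Ctrl, FLX versus PBS and FLX versus Ctrl, with its standard error, from edgeR's fit over all genes. Filled points use 5 PBS mice and open points all 6. The open points of Fga, Fgb and Fgg move away from the filled ones in both comparisons that use the PBS group, while Pzp, Hrg and Ttr differ little between the fits.

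Pzp and Hrg, the members chosen by their fold changes between FLX and PBS mice, are described first. Their differences between groups partly follow from that choice, since the same PBS mice enter PBS versus Ctrl. Pzp (pregnancy zone protein, chr6:128483567-128526720, minus strand) encodes a broad protease inhibitor of the alpha-2-macroglobulin family. Pzp was at 7.24, 7.35, 14.02, 7.30, 8.35 and 3.84 FPKM in Ctrl replicates 1 to 6. It was at 1.85, 0.952, 0.914, 1.29 and 1.18 FPKM in PBS replicates 1 to 5, and at 4.43, 4.56, 6.34, 4.70, 2.89 and 8.10 FPKM in FLX replicates 1 to 6. Every PBS mouse was below every Ctrl and every FLX mouse, while the Ctrl and FLX groups overlapped. Between the PBS and Ctrl groups 1.75% of all genes were separated in this direction. The log2 fold change in PBS versus Ctrl was -2.67 (SE, the standard error of the fit, 0.30), with an adjusted p of 0.00013 in edgeR, a fall to 1.24 ± 0.377 FPKM (SD, n = 5) from 8.02 ± 3.32 (SD, n = 6). Over all 6 PBS mice it was -2.92 (adjusted p = 0.00145), since PBS replicate 6 had 0.0881 FPKM, the lowest value of the 18 mice.

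Hrg (histidine-rich glycoprotein, chr16:22951072-22961656, plus strand) encodes a plasma protein that binds heparin, metal ions and plasminogen. Hrg was at 0.829, 1.73, 3.22, 1.59, 1.65 and 0.658 FPKM in the Ctrl mice, in replicate order. The PBS mice had 0.278, 0.232, 0.216, 0.350 and 0.409 FPKM, and the FLX mice 1.20, 0.914, 1.08, 1.27, 0.768 and 1.84 FPKM. As with Pzp, the PBS mice were all below both other groups and the Ctrl and FLX mice were mixed. In PBS versus Ctrl Hrg fell by 2.41 on the log2 scale (SE 0.35, adjusted p = 0.00073), and all 6 PBS mice together gave -2.63 (adjusted p = 0.00195), with 0.0472 FPKM in PBS replicate 6. In counts, Hrg had 37 to 70 per mouse in PBS replicates 1 to 5, 8 in PBS replicate 6, 114 to 578 in Ctrl and 90 to 222 in FLX, so its PBS values are the less precise.

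Between FLX and PBS mice, described without a test, Pzp differed by 1.96 (SE 0.29) and Hrg by 1.88 (SE 0.35) on the log2 scale, or by 2.21 and 2.10 with PBS replicate 6 included. No FLX value of either gene fell inside the PBS range, which held in this direction for 2.45% of all genes. The same PBS mice enter the comparison with Ctrl, so that the fall in PBS is not independent of how these genes were chosen. FLX means were 5.17 ± 1.81 FPKM for Pzp and 1.18 ± 0.372 for Hrg (SD, n = 6). In FLX versus Ctrl, Pzp had a log2 fold change of -0.71 (95% interval -1.26 to -0.16, adjusted p = 0.137, and 0.0470 with DESeq2) and Hrg of -0.53 (-1.18 to 0.12, adjusted p = 0.349). FLX replicates 1 and 2, whose totals were like those of the other groups, had 4.43 and 4.56 FPKM of Pzp and 1.20 and 0.914 FPKM of Hrg, inside the range of FLX replicates 3 to 6.

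A list of proximal tubule genes known for higher levels in male than in female kidneys was read beside Pzp and Hrg. Of 12 such genes tested, 5 were called lower in PBS versus Ctrl, among them Slco1a1 and Acsm3, where 1.67% of all genes were called lower. Of the rest, 0 were called higher and 7 were not called. All 12 had an unadjusted p under 0.05 in edgeR, but the list did not fall as a whole. Hsd3b4 had a median of 241.4 FPKM in PBS replicates 1 to 5 against 190.8 over all 17 mice, and Gm4450 153.5 against 121.3. Slco1a1, an organic anion transporter gene, was at 31.1 ± 13.5 FPKM in Ctrl and 4.598 ± 1.525 in PBS (log2 fold change -2.74, adjusted p = 0.000464). Acsm3, which activates medium-chain fatty acids, went from 147.0 ± 17.04 to 35.9 ± 10.99 FPKM (-2.02, adjusted p = 0.000155). FLX versus PBS showed a rise of 4 of the 12, where 0.306% of all genes were called higher. Among kidney segment markers, 2 of 14 were called in PBS versus Ctrl, with Kap lower and Miox higher, the latter not called over all 6 PBS mice (adjusted p = 0.575). In whole kidney RNA, fewer cells of a type and less RNA per cell cannot be told apart.

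The region before each start site is shown for Pzp and Hrg, the members chosen by their fold changes between FLX and PBS mice. Sequences are from RefSeq on GRCm38.p6, read 5′ to 3′ on the gene's strand up to the last base before the start, and 8 of the 10 members had an entry. Capitals mark, on either strand, matches to TTCNNNGAA (a STAT site), CTGGGAA (the type II interleukin-6 response element), TTGCNNAA (a C/EBP site) or GTTAAT (a part of the HNF1 site). In the 250 bases before the start, these letters occur in 7.02%, 9.1%, 9.56% and 6.43% of 32851 RefSeq promoters. The Pzp window is chr6:128526721-128526970, minus strand, and the Hrg window is chr16:22950822-22951071, plus strand.
Pzp: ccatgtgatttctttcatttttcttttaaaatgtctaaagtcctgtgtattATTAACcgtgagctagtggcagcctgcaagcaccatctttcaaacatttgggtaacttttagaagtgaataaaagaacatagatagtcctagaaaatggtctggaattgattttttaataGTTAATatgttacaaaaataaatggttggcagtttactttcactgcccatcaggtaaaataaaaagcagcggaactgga
Hrg: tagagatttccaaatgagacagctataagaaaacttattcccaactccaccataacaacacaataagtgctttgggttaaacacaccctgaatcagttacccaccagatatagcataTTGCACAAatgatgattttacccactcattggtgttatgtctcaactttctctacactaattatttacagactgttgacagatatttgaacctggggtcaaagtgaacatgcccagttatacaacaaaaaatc
Pzp held GTTAAT at 2 places, and Hrg held TTGCNNAA once. The pair had none of the 4 patterns in common in these windows. TGTTCT (a glucocorticoid half-site) was also searched, is not in capitals here, and occurs in 16.1% of the promoters. Of the 8 members with an entry, Fgg, Pzp and Apoh held it, in Pzp at 126 to 121 bases before the start.

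Fga, Fgb and Fgg encode the alpha, beta and gamma chains of fibrinogen, the clotting protein that thrombin turns into fibrin. The 3 genes lie side by side within 42.1 kb on chromosome 3, from 83007724 to 83049863, in the order Fgg, Fga, Fgb, with Fgb on the minus strand. Their promoters are shown because the chains rose together in 1 mouse. The windows are chr3:83007474-83007723 for Fgg, chr3:83025903-83026075 for Fga, cut to 173 bases where the gene's span in the table begins, and chr3:83049864-83050113 on the minus strand for Fgb. Capitals are as for Pzp.
Fgg: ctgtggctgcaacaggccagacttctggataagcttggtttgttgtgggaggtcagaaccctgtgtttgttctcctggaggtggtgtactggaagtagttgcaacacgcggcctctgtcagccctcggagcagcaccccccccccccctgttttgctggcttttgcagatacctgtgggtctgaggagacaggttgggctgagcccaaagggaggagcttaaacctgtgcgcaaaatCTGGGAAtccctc
Fga: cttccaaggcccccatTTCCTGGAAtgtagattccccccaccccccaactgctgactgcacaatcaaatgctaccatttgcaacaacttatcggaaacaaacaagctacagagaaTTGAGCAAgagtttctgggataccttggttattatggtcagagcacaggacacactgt
Fgb: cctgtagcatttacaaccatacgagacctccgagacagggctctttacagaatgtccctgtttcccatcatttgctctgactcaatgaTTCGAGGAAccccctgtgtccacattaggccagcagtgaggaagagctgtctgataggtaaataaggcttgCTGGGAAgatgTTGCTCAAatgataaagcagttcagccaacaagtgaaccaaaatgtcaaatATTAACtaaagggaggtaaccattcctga
Fgg held CTGGGAA at 13 to 7 bases before the start, and TGTTCT, not in capitals, at 183 to 178 bases. Fga held TTCNNNGAA at 234 to 226 bases and TTGCNNAA at 135 to 128 bases before its RefSeq start. It also held GTTAAT nearer the start, in bases not shown. Fgb held all 4 patterns, with CTGGGAA at 91 to 85 bases before the start. Such matches are letters in a window and do not show that a factor binds.

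Across the groups, Fga alone of the 3 chains passed the test with 5 PBS mice. Fga was at 6.39, 4.14, 5.77, 4.76, 5.59 and 8.79 FPKM in Ctrl and at 21.0, 7.73, 10.6, 18.1 and 9.90 FPKM in PBS replicates 1 to 5. The FLX mice had 8.49, 8.21, 12.6, 13.01, 5.75 and 16.1 FPKM. PBS and Ctrl values overlapped only through PBS replicate 2, which lay below Ctrl replicate 6, and the FLX mice were spread over both groups. Fga rose in PBS versus Ctrl by 1.21 on the log2 scale (SE 0.28, adjusted p = 0.0200). The call was lost without Ctrl replicate 2 (adjusted p = 0.0523), PBS replicate 1 (0.0756) or PBS replicate 4 (0.0642). In FLX versus Ctrl the log2 fold change of Fga was 0.77 (95% interval 0.21 to 1.33, adjusted p = 0.114) and in FLX versus PBS -0.44 (-1.02 to 0.14, adjusted p = 0.617).

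Some markers of injured tubules and of neutrophils were also higher in the PBS group. Of 8 tubule injury markers 2 rose in PBS versus Ctrl, Clu and Spp1, which carry most of the list's sum. The summed level of the 8 was 345.4 to 595.1 FPKM in Ctrl, 636.4 to 1086 in PBS replicates 1 to 5 and 455.9 to 786.8 in FLX. Of 8 neutrophil markers tested, 3 rose (Ngp, S100a8 and S100a9), and the sum over 11 was 1.56 to 3.60 FPKM in Ctrl, 7.34 to 26.5 in PBS and 0.514 to 6.02 in FLX. Red cell markers summed to 47.1 to 780.1 FPKM in Ctrl, 149.4 to 2136 in PBS and 39.0 to 300.9 in FLX. The part of these markers in the rise of Fga was not tested.

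Fgb stayed below 1 FPKM in all mice but PBS replicate 6. It ranged from 0.216 to 0.329 FPKM in Ctrl (median 0.273), from 0.183 to 0.547 in PBS replicates 1 to 5 (median 0.355) and from 0.358 to 0.670 in FLX (median 0.481). Every FLX mouse was above every Ctrl mouse, as for 2.67% of all genes, but the log2 fold change of 0.79 (SE 0.24) did not pass the test over all genes (adjusted p = 0.0761). It passed without Ctrl replicate 3 (0.0422) or PBS replicate 2 (0.0493), with only these groups in the fit (0.0470), with DESeq2 (0.0283) and with limma at either pseudocount (0.0493 and 0.0395). The other 22 settings left it uncalled. Among them was edgeR with all 6 PBS mice, at 0.79 with an SE of 1.04 (adjusted p = 0.739). Fgg was at 3.75 ± 1.11 FPKM in Ctrl (SD, n = 6), 4.35 ± 1.10 in PBS (n = 5) and 4.36 ± 1.97 in FLX (n = 6), with all 3 groups overlapping. Its log2 fold changes were 0.23 in PBS versus Ctrl (95% interval -0.30 to 0.75) and 0.12 in FLX versus Ctrl (-0.38 to 0.62).

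PBS replicate 6 had 266.4 FPKM of Fga, 39.7 of Fgb and 280.6 of Fgg, which were 25.1, 111.7 and 63.3 times the median of the other 5 PBS mice. In the other 17 mice the chains were unequal, with Fga at 13.1 to 73.2 times Fgb and Fgg at 6.58 to 22.4 times Fgb. In PBS replicate 6 the ratios were 6.71 and 7.07. Genes next to the locus stayed in the range of the other 17 mice, among them Plrg1, a splicing factor gene, at 8.14 FPKM (others 6.85 to 10.5), and Lrat, a retinol esterification gene, at 0.641 FPKM (others 0.295 to 0.926). With this mouse in the fit the log2 fold changes in PBS versus Ctrl were 3.20 for Fga (adjusted p = 0.0195), 4.601 for Fgb (adjusted p = 0.0294) and 3.70 for Fgg (adjusted p = 0.0420). The calls of Fgb and Fgg rest on this mouse alone, while Fga was also called without it, at 1.21. Between FLX and PBS they were -2.43, -3.81 and -3.58 (adjusted p = 0.126, 0.124 and 0.110).

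**Figure D3:**
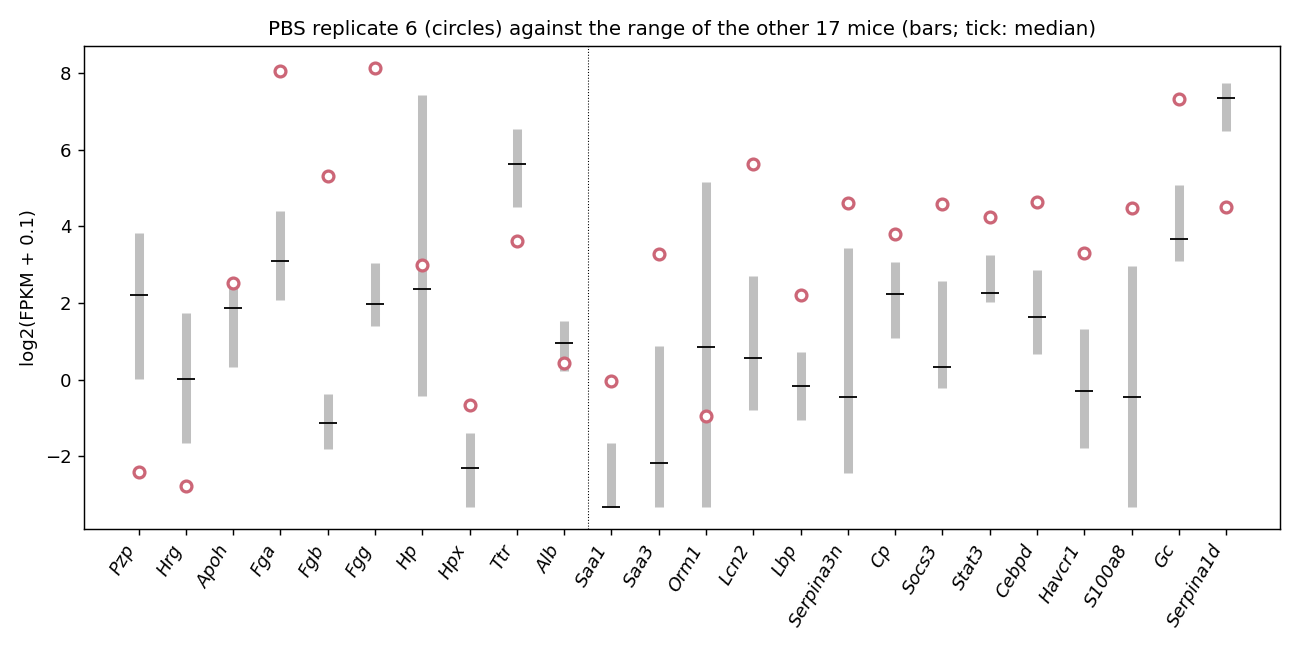
Levels in PBS replicate 6 (circles) against the range of the other 17 mice (grey bars, with a tick at their median), as log2(FPKM + 0.1), for the 10 members left of the dotted line and for acute-phase, signalling, injury, neutrophil and other plasma protein genes right of it. The fibrinogen genes, Lcn2 and Serpina3n lie above their bars, while Pzp, Hrg, Ttr and Serpina1d lie below theirs.

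Of the 10 members, 4 were higher in PBS replicate 6 than in any other mouse (Fga, Fgb, Fgg and Hpx) and 3 were lower (Pzp, Hrg and Ttr). This mouse was outside the range of the others for 29.2% of all genes tested, against 4.03% to 23.2% for each other mouse. Of 24 classical acute-phase genes 11 were above all other mice, among them Lcn2, a siderophore-binding protein gene, at 49.2 FPKM (others 0.474 to 6.37), and Serpina3n, a protease inhibitor gene, at 24.1 FPKM (others 0.0857 to 10.8). Saa3 was at 9.53 FPKM (others 0 to 1.74). Orm2, Orm3, Hamp and Hamp2 were at 0, as in some other mice, with at most 0.0915, 3.98, 0.176 and 0.670 FPKM elsewhere. Of the 24, 0 were below all other mice. Of 24 signalling genes 8 were above all other mice and 4 below. Among the 8 were Stat3, at 18.7 FPKM, Cebpd, at 24.5, Osmr, at 2.13, and Osm, at 0.263. Il6 itself, at 0.0707 FPKM, was in the range of the other mice.

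The same mouse had 7 of 8 injury markers and 8 of 11 neutrophil markers above all others, with Havcr1, a marker of injured proximal tubules, at 9.75 FPKM against 0.189 to 2.40. The sum of the injury markers was 4279 FPKM and that of the neutrophil markers 67.1 FPKM. Of 17 hepatocyte genes 8 were at 0, Cps1, Cyp8b1, Cyp3a11, Cyp2c29, Slco1b2, Abcb11, Uox and Mat1a, and Alb was at 1.25 FPKM, inside the range of the other mice. Of the 17 hepatocyte genes, 5 were above all other mice and 0 below. Fabp1, a fatty acid binding protein gene, was among the 5, at 26.1 FPKM (others 0.0551 to 1.09). Of 12 male-biased tubule genes 10 were lower than in any other mouse. The part of these markers in the fibrinogen values was not tested.

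Hp encodes haptoglobin, which binds free hemoglobin, and Hpx encodes hemopexin, which binds free heme. Hp was at 6.65, 1.19, 1.35, 1.97, 0.639 and 7.40 FPKM in Ctrl, at 16.7, 2.94, 5.06, 6.59 and 41.6 FPKM in PBS replicates 1 to 5 and at 7.84 FPKM in PBS replicate 6. The FLX mice had 2.30, 18.9, 18.8, 4.49, 171.5 and 4.44 FPKM. The groups overlapped, and PBS replicate 5 and FLX replicate 5 were far above the rest. For PBS versus Ctrl the value of Hp was 2.18 on the log2 scale (SE 0.99, adjusted p = 0.256) and for FLX versus Ctrl 3.42 (SE 1.01, adjusted p = 0.0669, and 0.00813 with DESeq2). Between FLX and PBS it was 1.25, and -0.62 without FLX replicate 5.

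Markers of fat cells were read beside Hp. The summed level of 8 fat cell markers was 1246 FPKM in PBS replicate 5 and 1268 in FLX replicate 5, against 7.13 to 288.4 FPKM in the other 16 mice, and the same pair of mice ranked highest for Hp. PBS replicate 6 had a sum of 20.1 FPKM, with Lep at 0, and an Hp level above that of 12 other mice. Among the 8 markers, 0 were called with edgeR, DESeq2 or limma in each comparison, with at most 2 at an unadjusted p under 0.05. After group means were removed, Hp and Adipoq (adiponectin) had a Pearson's r of 0.94 and a Spearman's rho of 0.96 over 17 mice. Without FLX replicate 5 and PBS replicate 5 the r was 0.92. The pair was chosen after the values were seen, so this is a description without a test. The genes with levels most like Hp, of 12099 compared, were Car3, Mrap and Cfd (r = 0.98, 0.97 and 0.97). Cfd is among the 8 markers summed above, and Car3 and Mrap are also fat cell genes. The sum, the r with Adipoq and this likeness come from the same mice and are not separate evidence. In contrast, Hp and the acute-phase gene Lcn2 had an r of -0.13 (adjusted p = 0.716). The part of fat tissue in the Hp differences was not tested.

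**Figure D4:**
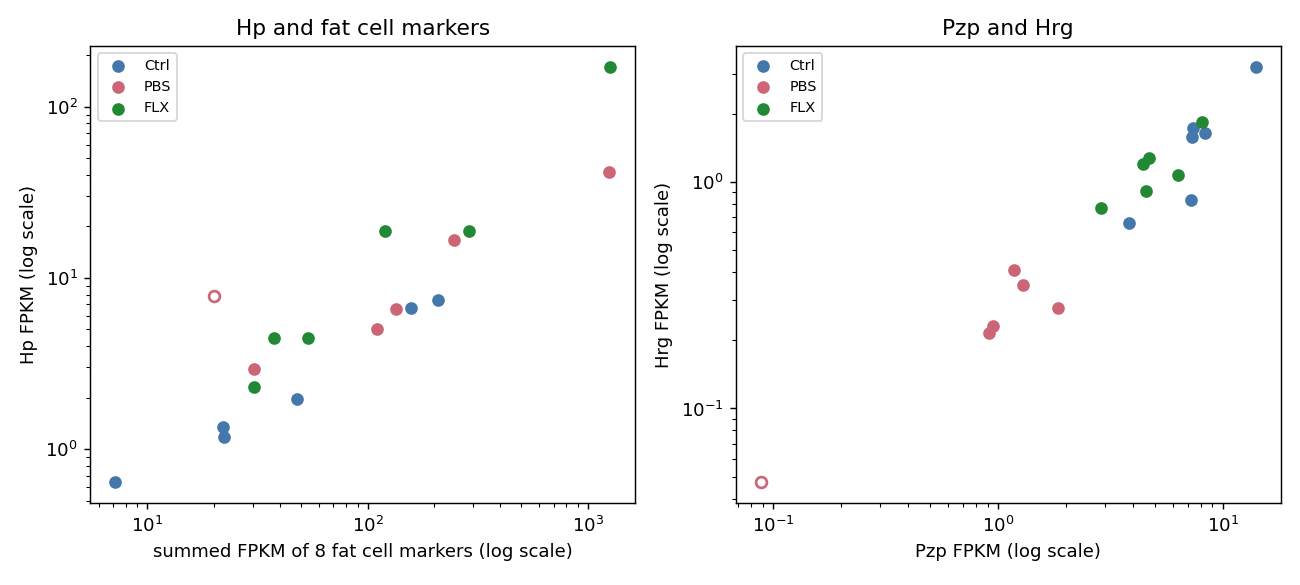
Left, Hp level against the summed level of 8 fat cell markers in each mouse. Right, Hrg level against Pzp level in each mouse. All axes are FPKM on a log scale, colours mark the groups and the open circle is PBS replicate 6. The 2 mice with the highest fat cell sums, 1246 and 1268 FPKM, have the highest Hp, and the PBS mice lie at the lower left for Pzp and Hrg.

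Hpx was near the limit of detection. It was at 0.0843 to 0.279 FPKM in Ctrl (12 to 38 counts per mouse) and at 0 to 0.229 FPKM in PBS replicates 1 to 5, with PBS replicate 5 at 0. In FLX it was at 0 in 4 of 6 mice, at 0.0541 FPKM in replicate 2 and at 0.226 FPKM in replicate 4. The FLX mice at 0 include replicate 1, with the highest total of all mice, and 3 of the 4 with low totals. A count of 0 allows up to 3 counts, a limit that covers counting error only. The log2 fold change in FLX versus Ctrl was -2.20 (SE 1.05, adjusted p = 0.245). Hpx passed the filter through the Ctrl and PBS mice, so this comparison is drawn from a gene kept for its level there.

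Ttr was the member that fell in FLX versus Ctrl. It was at 76.7, 76.8, 51.4, 80.9, 93.0 and 54.6 FPKM in Ctrl, at 38.4, 49.1, 50.0, 68.6 and 31.3 FPKM in PBS replicates 1 to 5 and at 33.1, 34.6, 39.6, 36.8, 22.6 and 37.6 FPKM in FLX. Every FLX mouse was below every Ctrl mouse, as for 0.731% of all genes, and the PBS mice overlapped with both groups. The log2 fold change in FLX versus Ctrl was -1.18 (SE 0.20, adjusted p = 0.00458), a fall from 72.2 ± 16.1 (SD, n = 6) to 34.1 ± 6.05 FPKM (SD, n = 6), and the same with all 6 PBS mice in the fit (adjusted p = 0.0426, where 0.762% of genes were called lower). FLX replicates 1 and 2, with high totals, had 33.1 and 34.6 FPKM, like the FLX mice with low totals. In PBS versus Ctrl the log2 fold change was -0.60 (95% interval -1.03 to -0.17, adjusted p = 0.121) and in FLX versus PBS -0.58 (-1.01 to -0.15, adjusted p = 0.242). The PBS versus Ctrl difference passed the test without Ctrl replicate 3 (adjusted p = 0.0427) or PBS replicate 4 (0.0428), and with DESeq2 (0.0426). PBS replicate 6 had 12.2 FPKM, the lowest of all mice.

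Alb and Apoh passed the test in no comparison. Alb was at 1.95 ± 0.204 FPKM in Ctrl (SD, n = 6), 1.71 ± 0.702 in PBS (n = 5) and 2.03 ± 0.458 in FLX (n = 6). Relative to Ctrl its log2 fold change was -0.17 in PBS (95% interval -0.66 to 0.32) and -0.03 in FLX (-0.49 to 0.44). Apoh, beta-2-glycoprotein I, which binds anionic phospholipids, was at 4.04 ± 1.59 FPKM in Ctrl, 2.65 ± 0.735 in PBS and 3.64 ± 1.36 in FLX. Ctrl replicate 6, at 1.16 FPKM, and FLX replicate 5, at 1.40, were lowest, and PBS replicate 6, at 5.64, was above the other PBS mice. Its log2 fold change in PBS versus Ctrl was -0.60 (95% interval -1.31 to 0.10, adjusted p = 0.369).

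Other genes of the same pathways changed in both directions. Of 40 other plasma protein genes tested, 3 rose in PBS versus Ctrl (Cp, Gc and Serpina1a) and 2 fell (Serpina7 and Azgp1), with a median log2 fold change of 0.48 over the 40. Over all 6 PBS mice Serpina1a was not called (adjusted p = 0.0658), and Serpina7 went from -4.23 to 0.30 on the log2 scale (adjusted p = 0.924), with 0.471 FPKM in PBS replicate 6 and 0 in 4 of the other 5 PBS mice. Cp (ceruloplasmin, the copper carrier) was at 2.53 ± 0.541 FPKM in Ctrl, 7.03 ± 1.17 in PBS and 5.18 ± 1.08 in FLX, and rose by 1.49 in PBS and by 0.95 in FLX versus Ctrl on the log2 scale (adjusted p = 2.46e-05 and 0.00159). Gc, the vitamin D binding protein, rose from 11.2 ± 3.19 to 25.1 ± 7.94 FPKM (1.18, adjusted p = 0.0145). Azgp1, zinc-alpha-2-glycoprotein, fell from 53.6 ± 15.4 to 22.2 ± 5.11 FPKM (-1.27, adjusted p = 0.00755).

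In FLX versus PBS, Igfbp1, which binds insulin-like growth factors, and Apoc3, an inhibitor of triglyceride clearance, were the 2 of 40 that were called, both lower. Igfbp1 was at 11.5 ± 3.78 FPKM in Ctrl, 6.31 ± 3.13 in PBS and 1.598 ± 1.03 in FLX, which fell by 2.09 on the log2 scale in FLX versus PBS (adjusted p = 0.0191) and by 2.94 in FLX versus Ctrl (adjusted p = 0.00101). Serpina1d and Serpinf2, protease inhibitor genes with the highest levels of this list, were at 145.8 ± 22.6 and 145.4 ± 27.7 FPKM in Ctrl and were called in no comparison. The kidney levels of these genes were thus above those of every member, Ttr included.

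Of 16 acute-phase genes tested, 3 rose in PBS versus Ctrl, Cp and the metal-binding metallothioneins Mt1 and Mt2. Mt1 went from 57.5 ± 13.9 to 110.2 ± 34.3 FPKM and was at 63.8 ± 9.25 FPKM in FLX (log2 fold change 0.94, adjusted p = 0.00464 in PBS versus Ctrl, and -0.88, adjusted p = 0.0228 in FLX versus PBS). Of 22 signalling genes tested, Stat3, Cebpb and Cebpd rose in PBS versus Ctrl. Cebpd was at 2.14 ± 0.579 FPKM in Ctrl, 6.32 ± 0.613 in PBS and 3.06 ± 1.02 in FLX (1.57, adjusted p = 0.000488, and -1.14 in FLX versus PBS, adjusted p = 0.0190). Cebpb rose by 1.34 (adjusted p = 0.000143) and fell in FLX versus PBS by 0.86 (adjusted p = 0.0157). Stat3 rose by 0.62 (adjusted p = 0.0260) and was at -0.47 in FLX versus PBS (adjusted p = 0.180).

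Among 27 coagulation and fibrinolysis genes tested, Thbd and Serpine2 rose and F3 and Proc fell in PBS versus Ctrl. Thbd (thrombomodulin, the cell-surface brake on thrombin) was at 2.82 ± 0.501, 4.62 ± 0.563 and 5.56 ± 1.05 FPKM in Ctrl, PBS and FLX, with log2 fold changes of 0.73 in PBS (adjusted p = 0.00527) and 0.89 in FLX versus Ctrl (adjusted p = 0.00159). F3 (tissue factor, the starter of clotting) was at 7.18 ± 0.710, 4.92 ± 0.761 and 5.58 ± 1.10 FPKM (-0.54, adjusted p = 0.0227, and -0.46, adjusted p = 0.0415). With all 6 PBS mice in the fit, Proc in PBS versus Ctrl (adjusted p = 0.0524) and Thbd and F3 in FLX versus Ctrl (0.0703 and 0.0608) were not called. Plau, the urokinase gene, had the highest level of this list, 185.5 ± 29.6 FPKM in Ctrl, and was not called. Of 19 receptor and clearance genes, edgeR called 0 in each comparison, with 3, 1 and 5 at an unadjusted p under 0.05 in PBS versus Ctrl, FLX versus PBS and FLX versus Ctrl, and DESeq2 called 1, 0 and 1. Lrp2, which encodes megalin, was at 68.0 ± 13.5, 71.7 ± 11.02 and 69.1 ± 5.70 FPKM in the 3 groups.

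Within groups, members varied together in part. After group means were removed from log2(FPKM + 0.1), Pzp and Hrg had a Pearson's r of 0.79 and a Spearman's rho of 0.75 over 17 mice (permutation tests within groups, adjusted p = 0.0045 and 0.0067 over 9 pairs). The r was 0.58 without Ctrl replicates 3 and 6, the mice farthest from the median of Pzp. Fgb and Fgg had an r of 0.69 and a rho of 0.71 (adjusted p = 0.00858 and 0.00924), and 0.59 without PBS replicates 2 and 4. The 9 pairs include Hp and Adipoq, chosen after the values were seen, which makes these adjusted p smaller. Unadjusted permutation p were 0.001 and 0.00149 for Pzp and Hrg, and 0.00286 and 0.00308 for Fgb and Fgg. The other fibrinogen pairs did not pass, with r = 0.54 for Fga and Fgg (adjusted p = 0.0885) and 0.20 for Fga and Fgb (adjusted p = 0.671). Hp and Hpx (r = -0.34), Alb and Ttr (0.28) and Alb and Apoh (0.08) did not pass either.

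The genes most like each member of at least 0.5 FPKM on average, which leaves out Fgb and Hpx, were sought among 12099 genes of at least 1 FPKM by the same r over 17 mice, as a description. For Pzp they were Cckar (0.89), Ace (0.88) and Vangl1 (0.87), and for Hrg Plaa and Ssx2ip (0.86 and 0.86) were among them. Apoh was most like Azgp1 (0.88), Ttr most like Keg1 (0.88) and Alb most like Dusp6 (0.88). Fga was most like Abhd17c (0.88) and Fgg most like Gm48135 (0.83).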

How the data were processed

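Poly(A) RNA of 18 kidneys was sequenced as read pairs of 150 bases. The authors cleaned reads with fastp, mapped them with HISAT-3N to GRCm38 and used StringTie. The submitters' processing notes also name cutadapt 1.9, HISAT2 2.0.4, UMI-tools and StringTie 1.3.4d. The deposited FPKM values were made by the authors with StringTie. The authors also deposited an estimated count per gene and mouse, whose tool the sources used here do not name. More genes held 4 counts (median 720 per mouse) than 3 (484.5) or 5 (268), so the counts are not plain fragment counts, and they were used as deposited, being whole numbers. The authors' own comparison columns (fold changes and p values), where held, were not used.

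Groups were compared with edgeR 4.0.16 in R 4.3.3: TMM scaling, filterByExpr (minimum count 10), 1 quasi-likelihood model over the 3 groups without PBS replicate 6 (17 mice), two-sided tests and Benjamini-Hochberg adjustment over all genes tested, called at 0.05. The 95% intervals are from the same fit. A run on simulated counts checked its calls and fold changes but not its intervals. Groups without overlap were read from FPKM values. DESeq2 1.42.0, limma 3.58.1 on log2(FPKM + 0.1), other scalings, filters, replicate sets and a replicate block were alternatives. Same-numbered mice of different groups did not deviate together (16 pairs, r -0.22 to 0.29), so numbers were not taken as pairs. Within-group correlations used 100000 permutations.

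The members and gene lists were chosen with earlier results of these data known. All members were named, together with the called genes (at most 6) and the 2 genes of highest FPKM of each list, of which a selection is described, and the 3 genes most like each member. Mug1, Mug2 and 6 other listed genes were not analysed here, and some values of other genes are not reported here.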

Additional observations from a re-analysis of the deposited data

Results flagged for a closer look

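Levels were searched in 30 groups (10 members in 3 groups of 6 mice) for a mouse far from the other 5 by Dixon's test on FPKM. Chance meets its threshold in about 1 in 20 groups if values are normally distributed, which FPKM values need not be. The search found 7, all of them high values. Those in PBS replicate 6 are from a mouse already set aside, so the 7 are a description and are not read against that rate. In the PBS group, replicate 6 stood apart with 266.4 FPKM of Fga (others 7.73 to 21.0), 39.7 FPKM of Fgb (others 0.183 to 0.547) and 280.6 FPKM of Fgg (others 2.55 to 5.40). FLX replicate 4 had 8.16 FPKM of Fgg, against 2.61 to 4.57 in the other FLX mice. Hp was far from the rest in PBS replicate 5, at 41.6 FPKM (others 2.94 to 16.7), and in FLX replicate 5, at 171.5 FPKM (others 2.30 to 18.9). Hpx was at 0.226 FPKM in FLX replicate 4, against 0 to 0.0541 in the other FLX mice, a value of 20 counts.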

How the results depend on the processing

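The falls of Pzp and Hrg in PBS versus Ctrl kept their direction and their call in all 27 alternatives each, with log2 fold changes of -2.92 to -1.95 and -2.63 to -0.94. Of 827 alternative values of the 30 fold changes, 789 kept direction and side of the threshold, 8 lost and 13 gained a call, and 17 changed sign, none of these called. In members called, PBS versus Ctrl (3) gave 5 with all 6 PBS mice and 2 to 4 with 1 mouse left out. For FLX versus PBS the 2 are Pzp and Hrg, chosen on this comparison, so their counts are a description without a test. That count was 1 with limma on log2(FPKM + 1), 0 with FLX replicates 1 and 2 only, and 2 with any 1 mouse left out. FLX versus Ctrl (1) gave 4 with DESeq2, 2 with limma at either pseudocount, 2 with only these groups in the fit, 0 with FLX replicates 1 and 2 only, and 1 to 2 with 1 mouse left out.

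In all genes called, PBS versus Ctrl (772) gave 1413 with DESeq2, 496 with only these groups and 388 to 1662 with 1 mouse left out (lowest without PBS replicate 1, highest without Ctrl replicate 3). FLX versus PBS (147) gave 498 with DESeq2, 88 without a filter, 255 and 242 with limma at pseudocounts 0.1 and 1, 95 with only these groups and 47 to 250 with 1 mouse left out. FLX replicates 1 and 2 only gave 0 with edgeR, 1323 genes at an unadjusted p under 0.05. FLX versus Ctrl (744) gave 1615 with DESeq2, 378 without a filter, 1214 and 1197 with limma, 354 with all 6 PBS mice, 4 with FLX replicates 1 and 2 only, 350 without FLX replicate 5 and PBS replicate 5 (chosen after seeing the data) and 271 to 3099 with 1 mouse left out. With the replicate number as a block, counts were 419, 67 and 258 genes. Members called in FLX versus PBS were then 1, again as a description. Of 17 mice, 3 correlated best with their own number. The causes were not tested.

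Sign changes were as follows. In PBS versus Ctrl, Hpx was 0.0219 with all 6 PBS mice. In FLX versus PBS, Fgb was -3.81 with all 6 PBS mice, Hp was -0.48 with FLX replicates 1 and 2 only and -0.62 without FLX replicate 5 (leave-one-out range -0.62 to 2.11), and Fgg was 0.0141 without FLX replicate 5 and 0.0105 without PBS replicate 4 (range -0.34 to 0.0141) and 0.0579 without FLX replicate 5 and PBS replicate 5. In FLX versus Ctrl, Fgg was -0.11 without FLX replicate 4 (range -0.11 to 0.28), and Alb was 0.0343 and 0.0278 with limma at pseudocounts 0.1 and 1, 0.21 with FLX replicates 1 and 2 only, 0.0191 without FLX replicate 5 and PBS replicate 5, and 0.0237, 0.000376, 0.0108, 0.0478 and 0.0189 without Ctrl replicate 4 or FLX replicate 2, 3, 4 or 5 (range -0.14 to 0.0478). The r of Alb and Apoh was -0.0174 over all 18 mice. Depth limits Hpx most, with 0 to 38 counts in 17 mice, then Hrg in PBS mice.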

Other observations

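Markers of other cells were read beside the members. Macrophage markers gave 0 calls of 8 with edgeR in PBS versus Ctrl and 0 at an unadjusted p under 0.05, and DESeq2 called 0. In FLX versus Ctrl edgeR also called 0 of the 8, with 2 at an unadjusted p under 0.05, while DESeq2 called 2 and limma 1. Red cell markers gave 0 of 6 with edgeR in FLX versus PBS, 5 at an unadjusted p under 0.05, and DESeq2 called 5, with a median log2 fold change of -2.70 over the 6. Adrenal cortex markers summed to 0.572 to 3.79 FPKM in the 17 mice, with 0 of 3 called by edgeR or DESeq2 in PBS versus Ctrl and 2 at an unadjusted p under 0.05.

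The transcription factor gene Hnf4a is one that many plasma protein genes need in hepatocytes. In these kidneys it was at 102.5 ± 7.22 FPKM in Ctrl (SD, n = 6), 122.5 ± 8.21 in PBS (SD, n = 5) and 133.6 ± 13.2 in FLX (SD, n = 6). Hnf4a was called by edgeR in no comparison. Over all 6 PBS mice its adjusted p was 0.205 in PBS versus Ctrl and 0.110 in FLX versus Ctrl. Il1r1, a receptor gene for interleukin-1, was the signalling gene called in FLX versus Ctrl, at 0.54 on the log2 scale (adjusted p = 0.0330). It was not called over all 6 PBS mice (adjusted p = 0.117). Serpina3n rose in FLX versus Ctrl by 3.01 on the log2 scale (adjusted p = 0.0391), and that call was also lost over all 6 PBS mice (adjusted p = 0.117).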
